A study of Mus musculus with 9 samples.

Results

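The insulin-like growth factor (IGF) axis was followed here through 9 genes: the ligand Igf1, the receptors Igf1r and Insr, and the binding protein genes Igfbp2, Igfbp3, Igfbp4, Igfbp5, Igfbp6 and Igfbp7. The members were the probe sets whose platform gene symbol is one of these 9, which gave 27 of the 45101 probe sets on the array. Each gene was represented by whichever of its probe sets had the highest mean, and 8 of the 9 genes reached a log2 value of 5 on at least 3 arrays and were tested, among 10320 tested of 18194 genes in all. Igfbp6 did not reach that level on any array.

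The arrays measured total RNA of passage 3 neurospheres, floating colonies grown from C57BL/6J mouse tissue taken at embryonic day 12.5, with 3 arrays in each of 3 groups. SCSC were spheres of spinal cord, and rNCSC were spheres of dorsal root ganglia (DRG), the sensory ganglia that arise from the neural crest. Both were kept in serum-free medium with bFGF and EGF at 20 ng/ml each, heparin, and the N2 and B27 supplements. BMP NCSC were spheres of DRG in the same medium with BMP4, a bone morphogenetic protein, added at 10 ng/ml. N2 and B27 both contain insulin, so all 3 groups were grown with a ligand of the insulin receptor. BMP NCSC and rNCSC differ by BMP4 alone per the labels, whereas BMP NCSC and SCSC differ in both tissue and BMP4. Each array is 1 RNA extract of whole spheres, and no label ties replicates to separate embryos or cultures. The p-values therefore speak of the spread between arrays, which may be technical.

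IGF1 and IGF2 act through the IGF1 receptor, a tyrosine kinase that shares its adaptors and its PI3K-AKT output with the insulin receptor and forms hybrids with it. In tissue fluids most IGF is held by secreted binding proteins, which can keep the ligand from its receptor or carry it to the cell surface, and which proteases cleave to free it. In the developing nervous system the axis is known for effects on the growth and survival of progenitors, and in the skeleton and connective tissue for effects on cartilage and bone growth.

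The values are log2 units, in which a difference of 1 is a doubling. GCRMA, the method that made them, draws transcripts near background together at low values, so the size of a difference is uncertain where a group lies under 4. Array medians ran from 3.99 to 4.03. Markers set BMP NCSC apart from both other groups. The 8 CNS progenitor markers had array means of 11.36 to 11.69 in rNCSC and SCSC and 4.18 to 4.24 in BMP NCSC, and the 6 neural crest markers that were measured had means of 3.27 to 3.65 against 9.03 to 9.35. Not all CNS markers separated the groups: in BMP NCSC 6 of the 8 were under 4 on every array, but Nes was at 7.36 to 7.80 and Sox2 at 12.48 to 12.59 (-0.32 from rNCSC, not called). Although rNCSC came from DRG, the crest markers Erbb3, Ngfr, Snai2 and Foxd3 were under 4 on all 3 rNCSC arrays. Foxd3 was low in BMP NCSC as well, at 3.40, 3.50 and 4.20, and was not tested. One array, rNCSC replicate 3, stood apart from the others of its group: 225 of the 10320 genes lay at least 1 above both other rNCSC arrays, against 20 for replicate 1 and 102 for replicate 2. Igf1, Igfbp4 and Igfbp5 were among the 225, and the differences of these 3 genes from rNCSC are given with and without it.

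The upstream sequences of 4 members are shown because the results turn on them: Igfbp2, which was far lower in BMP NCSC; Igfbp5, its neighbour in the order of protein-coding genes on chromosome 1; and Igfbp7 and Igf1r, which were higher. Each is the 250 bases before a listed transcript start in RefSeq on GRCm38.p6, where 8 of the 9 genes matched. They are written 5′ to 3′ on the gene's own strand. Igfbp2 is at chr1:72824230-72824479 on the plus strand, Igfbp5 at chr1:72874866-72875115 on the minus strand, Igfbp7 at chr5:77408046-77408295 on the minus strand and Igf1r at chr7:67952007-67952256 on the plus strand. Capitals mark matches on either strand to GTCT, the core of the element bound by SMAD proteins, which carry the BMP signal, and to the GC box, GGGCGG. A match on the other strand shows here as its reverse complement. No match to one motif overlapped a match to the other.
Igfbp2: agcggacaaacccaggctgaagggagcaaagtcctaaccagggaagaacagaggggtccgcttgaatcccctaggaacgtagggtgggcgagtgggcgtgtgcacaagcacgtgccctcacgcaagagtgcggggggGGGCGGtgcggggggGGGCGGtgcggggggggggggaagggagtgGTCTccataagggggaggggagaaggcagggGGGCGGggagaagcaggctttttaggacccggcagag
Igfbp5: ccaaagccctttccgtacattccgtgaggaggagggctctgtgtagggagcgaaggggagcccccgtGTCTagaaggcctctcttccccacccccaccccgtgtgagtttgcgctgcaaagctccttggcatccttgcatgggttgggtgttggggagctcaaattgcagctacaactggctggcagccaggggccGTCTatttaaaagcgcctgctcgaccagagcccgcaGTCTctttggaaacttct
Igfbp7: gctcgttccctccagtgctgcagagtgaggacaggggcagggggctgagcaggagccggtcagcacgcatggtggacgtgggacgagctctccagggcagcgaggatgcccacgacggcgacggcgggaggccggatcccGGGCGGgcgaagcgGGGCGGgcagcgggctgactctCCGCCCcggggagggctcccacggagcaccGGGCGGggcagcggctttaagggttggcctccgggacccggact
Igf1r: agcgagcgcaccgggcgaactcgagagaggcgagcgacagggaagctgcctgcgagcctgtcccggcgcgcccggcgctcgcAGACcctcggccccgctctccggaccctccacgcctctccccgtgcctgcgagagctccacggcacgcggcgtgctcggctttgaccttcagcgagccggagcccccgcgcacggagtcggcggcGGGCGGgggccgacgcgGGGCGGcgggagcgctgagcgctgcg
The Igfbp2 stretch held 1 match to GTCT and 3 to GGGCGG, and the Igfbp5 stretch held 3 and 0. Igfbp2 has a second listed start, whose upstream window lies inside the gene and is not shown. That window held 3 and 0. The Igfbp7 stretch held 0 and 4, and the Igf1r stretch 1 and 2. Of 32851 promoter stretches of the same length in the table, 82.9% held the first motif on either strand and 32.7% the second. Another short sequence that SMAD proteins can bind, GGCGCC, was also searched on both strands, and was in 0 of these 4 stretches and in 9.59% of all. The stretches held 14 (Igfbp2), 10 (Igfbp5), 26 (Igfbp7) and 42 (Igf1r) CpG dinucleotides, against a median of 6 over all promoters, and their GC content was 67.2%, 58.8%, 74.0% and 77.6% against a median of 52.4%. The letters describe these windows only, and binding was not measured.

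DRG spheres with BMP4 were compared first with DRG spheres without it. Of the 8 tested members, 4 were higher in BMP NCSC than in rNCSC (Igf1, Igf1r, Igfbp4 and Igfbp7) and 1 was lower (Igfbp2) by limma. A call needed an adjusted p under 0.05, over all genes tested, together with a log2 difference of 1 or more in size. Among all 10320 genes tested, 22.6% were called higher in BMP NCSC and 21.3% lower, so calls in either direction were common in this contrast. The median difference over the 8 was 1.76, against -0.07 over all genes. Igf1 and Igfbp7 could pass the filter on low values only through BMP NCSC, which fixed the direction in which they could be called, so the count and the median over the 8 carry that limit. Because each array is bulk RNA, a lower level from fewer cells of a type and one from less RNA per cell cannot be told apart.

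**Figure D1:**
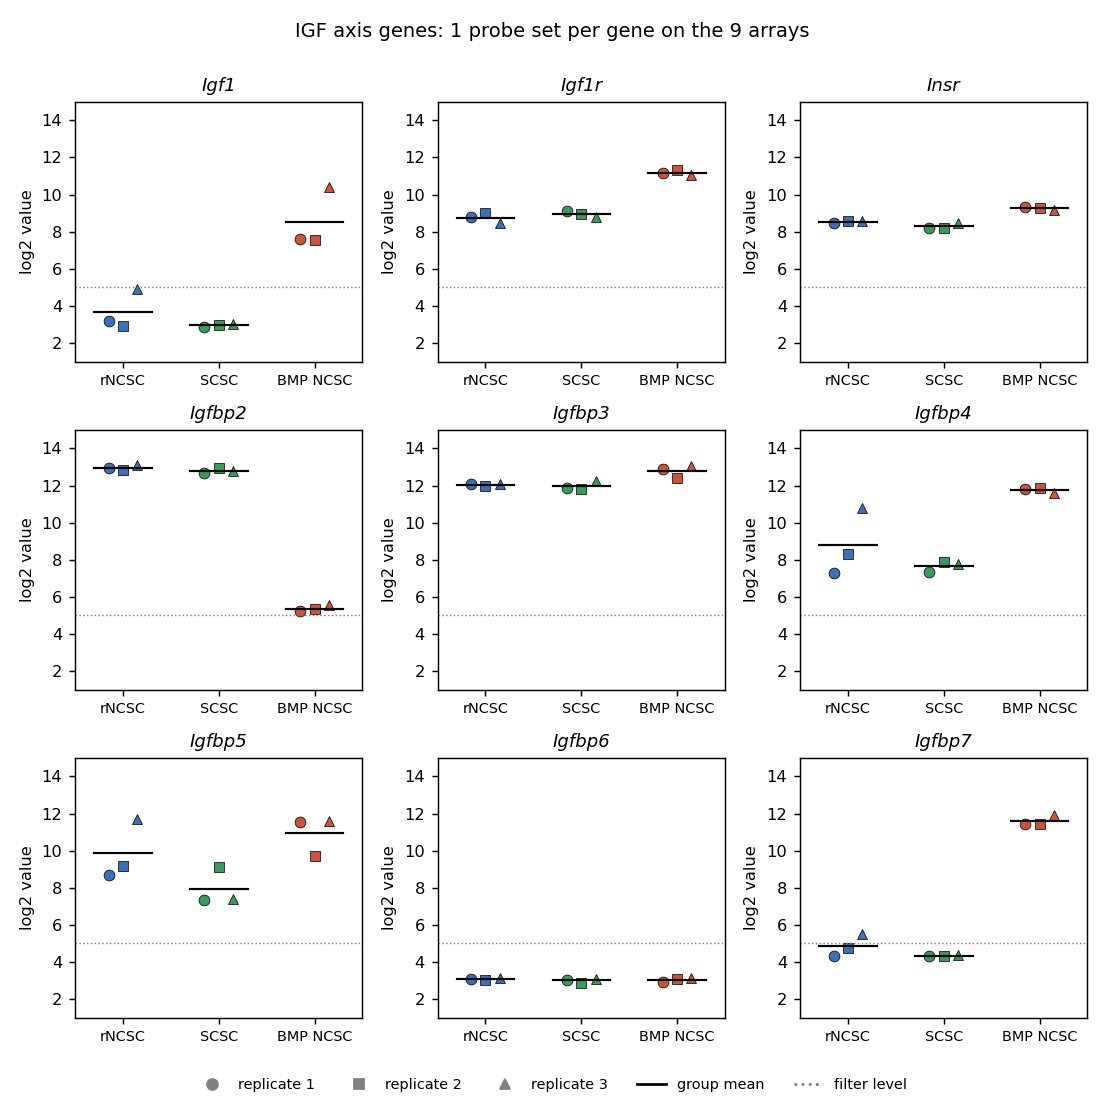
Log2 value of each of the 9 members (vertical axis, 1 panel per gene, highest-mean probe set) on the 3 rNCSC, 3 SCSC and 3 BMP NCSC arrays, with each array as a point, its replicate number as the shape and the group mean as a line. Igfbp2 lies between 12.66 and 13.11 on the 6 rNCSC and SCSC arrays and between 5.25 and 5.54 on the BMP NCSC arrays, and rNCSC replicate 3 of Igfbp4, at 10.81, sits near BMP NCSC.

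Igf1, the secreted ligand, is on chromosome 10. It was at 3.21, 2.94 and 4.90 on the 3 rNCSC arrays, at 2.87, 2.97 and 3.04 on the SCSC arrays, and at 7.62, 7.55 and 10.43 on the BMP NCSC arrays. The BMP NCSC arrays did not overlap the others, and replicate 3 was far above the others of its group, while rNCSC replicate 3 was the highest outside BMP NCSC. Igf1 was higher in BMP NCSC than in rNCSC by 4.85 ± 0.78 (SE; 95% interval 3.06 to 6.64; limma adjusted p = 0.000449), a 28.8-fold difference whose lower side lies near background. Without BMP NCSC replicate 3 the difference was 3.90 ± 0.51, and without rNCSC replicate 3 it was 5.46 ± 0.77. Against SCSC the difference was 5.57 ± 0.78 (adjusted p = 0.000176), or 4.63 ± 0.51 without BMP NCSC replicate 3.

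Of the 4 Igf1 probe sets, 2 passed the filter, and both were called higher against each other group. Neither reached 5 outside BMP NCSC, so that direction was fixed. The second, 1434413_at, was at 6.08, 6.01 and 9.02 on the BMP NCSC arrays, so replicate 3 stood out there as well. The remaining 2 reached at most 4.90 and 5.26, in each case on BMP NCSC replicate 3. All 4 therefore had their highest value on the same array. With the mean of the 4 in place of the highest, the difference was 2.77 from rNCSC and 3.19 from SCSC, both called.

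Igf1r encodes the receptor that binds IGF1 and IGF2 and lies on chromosome 7. It read 8.78, 9.01 and 8.48 in rNCSC, 9.10, 8.93 and 8.77 in SCSC, and 11.19, 11.31 and 11.04 in BMP NCSC. The BMP NCSC arrays were tightly grouped above the other 6, which overlapped each other. The rise from rNCSC to BMP NCSC was 2.42 ± 0.15 (SE; 5.35-fold; adjusted p = 1.13e-06), and that from SCSC was 2.24 ± 0.15 (adjusted p = 1.7e-06). Of its 5 probe sets 3 passed the filter and all 3 were called, with differences from rNCSC of 2.42, 2.43 and 1.70. The mean of the 5 gave 1.54 from rNCSC and 1.43 from SCSC, both called.

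Insr, the insulin receptor gene on chromosome 8, showed a smaller difference. It was at 8.49, 8.58 and 8.56 in rNCSC, at 8.19, 8.22 and 8.46 in SCSC, and at 9.35, 9.26 and 9.19 in BMP NCSC. The BMP NCSC arrays were above all others without overlap. The difference was 0.73 ± 0.10 from rNCSC (adjusted p = 0.000139) and 0.98 ± 0.10 from SCSC (adjusted p = 1.91e-05), both past the p threshold and below the size limit of 1, so Insr was not called. Without SCSC replicate 3 the difference from SCSC was 1.06 and without BMP NCSC replicate 3 1.02, which would be called. The other 2 Insr probe sets stayed between 2.72 and 3.23 on all arrays, and the mean of the 3 gave differences of 0.24 and 0.34.

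Igfbp2, a binding protein gene that is active in neuroepithelium and radial glia of the embryo, was the member called lower in BMP NCSC. It was at 12.96, 12.84 and 13.11 in rNCSC, at 12.66, 12.93 and 12.79 in SCSC, and at 5.25, 5.32 and 5.54 in BMP NCSC. The rNCSC and SCSC arrays overlapped, and no BMP NCSC array came near them. The difference between BMP NCSC and rNCSC was -7.60 ± 0.12 (SE; 194-fold lower; limma adjusted p = 4.24e-10), and between BMP NCSC and SCSC -7.42 ± 0.12 (172-fold lower; adjusted p = 4.73e-10). Igfbp2 has 1 probe set on the array, so no other probe set checks it. rNCSC replicate 3, which stood apart for Igfbp4, was here the highest of the 9 arrays.

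Igfbp7 encodes a secreted protein related to the binding proteins, with low affinity for IGF, found in vessel walls and matrix, and lies on chromosome 5. It read 4.30, 4.76 and 5.52 in rNCSC, 4.33, 4.31 and 4.38 in SCSC, and 11.45, 11.45 and 11.92 in BMP NCSC. The rNCSC and SCSC arrays lay near the low end of the scale, with rNCSC replicate 3 the highest of them. The rise was 6.75 ± 0.28 from rNCSC (107-fold; adjusted p = 9.03e-08) and 7.26 ± 0.28 from SCSC (154-fold; adjusted p = 5.47e-08). Its 2 other probe sets stayed under the filter and went different ways: 1423585_at had means of 3.07 in rNCSC and 4.83 in BMP NCSC, and 1437804_at had means of 4.41 and 4.09. With the mean of the 3 probe sets in place of the highest, the difference from rNCSC was 2.72 ± 0.12.

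Because Igfbp7 is also a gene of blood vessels, vessel markers were read on the same arrays. All 8 endothelial markers, Pecam1, Cdh5, Kdr, Tek, Tie1, Emcn, Cldn5 and Esam, were under 4 on all 9 arrays, with array means of 2.92 to 3.15. The 8 microglial and macrophage markers were likewise under 4 on all arrays, with means of 2.89 to 3.07. Of the 6 pericyte markers, array means were 4.23 to 4.45 in rNCSC and SCSC and 6.63 to 6.97 in BMP NCSC, and Abcc9 and Anpep were under 4 in BMP NCSC. The list did not move as one: Rgs5 and Cspg4 were higher than in rNCSC by 9.71 and 3.62, and Notch3 was lower (-1.53; limma adjusted p = 0.000348). Rgs5, at 2.25 to 2.62 on the rNCSC and SCSC arrays, passed the filter through BMP NCSC alone. That fixed its direction, and the size of its difference is uncertain.

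Igfbp4, on chromosome 11, encodes a binding protein that holds IGF away from its receptor until a pappalysin protease cleaves it. Its values were 7.31, 8.33 and 10.81 in rNCSC, 7.34, 7.86 and 7.78 in SCSC, and 11.80, 11.85 and 11.58 in BMP NCSC. rNCSC replicate 3 was more than 2 above the other rNCSC arrays and less than 1 under the lowest BMP NCSC array, and no BMP NCSC array overlapped another group. The difference from rNCSC was 2.92 ± 0.73 (7.58-fold; adjusted p = 0.00565), with 3.92 ± 0.29 (adjusted p = 7.24e-06) when rNCSC replicate 3 was left out and 2.17 ± 0.61 (adjusted p = 0.0135) when replicate 1 was. The difference from SCSC was 4.08 ± 0.73 (16.9-fold; adjusted p = 0.000814).

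The 6 Igfbp4 probe sets shared that pattern. Of them 5 passed the filter and all 5 were called higher in BMP NCSC in both comparisons. Outside BMP NCSC, 1421992_a_at reached 5 on rNCSC replicate 3 alone (6.10), so a call of it could only be higher. rNCSC replicate 3 was the highest of its group in all 6: 1423756_s_at, for example, was at 4.82, 6.59 and 9.47 in rNCSC, against 5.51 to 5.70 in SCSC and 10.69 to 11.41 in BMP NCSC. Probe sets whose names end in s_at or x_at can also take signal from related transcripts, and these 5 are no independent replicates.

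Igfbp3 encodes the main carrier of IGF in serum and is next to Igfbp1 on chromosome 11. It was at 12.08, 11.95 and 12.06 in rNCSC, at 11.89, 11.83 and 12.23 in SCSC, and at 12.88, 12.41 and 13.04 in BMP NCSC. The BMP NCSC arrays were above the rest, with replicate 2 just above the highest SCSC array. The differences of 0.74 ± 0.17 from rNCSC (adjusted p = 0.00362) and 0.79 ± 0.17 from SCSC (adjusted p = 0.00247) passed the p threshold and not the size limit. The second Igfbp3 probe set differed by 0.95 and 0.90. Igfbp3 thus read high in all 3 groups, and its chromosomal neighbour Igfbp1, a binding protein gene best known in liver, was at no more than 2.50 on any array.

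Igfbp5, which encodes a binding protein that attaches to extracellular matrix and is abundant in bone, varied within every group. It was at 8.70, 9.16 and 11.73 in rNCSC, at 7.35, 9.12 and 7.38 in SCSC, and at 11.55, 9.73 and 11.62 in BMP NCSC. rNCSC replicate 3 was the highest of all 9, so rNCSC and BMP NCSC overlapped, while SCSC and BMP NCSC did not. Igfbp5 was not called between BMP NCSC and rNCSC (1.11 ± 0.88; 95% interval -0.91 to 3.12; adjusted p = 0.274), and without rNCSC replicate 3 it was (2.04 ± 0.70; adjusted p = 0.0282). Leaving out rNCSC replicate 1 gave 0.53 and leaving out BMP NCSC replicate 2 gave 1.72, neither past the threshold. Against SCSC it was called higher in BMP NCSC, by 3.02 ± 0.88 (8.11-fold; adjusted p = 0.0117). Its second probe set, 1422313_a_at, stayed between 3.97 and 5.02, and the mean of both gave a difference from SCSC of 1.45 (adjusted p = 0.0311).

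Igfbp6, a binding protein gene on chromosome 15 whose product prefers IGF2, had 1 probe set and read 2.89 to 3.14 on the 9 arrays. It was not tested.

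**Figure D2:**
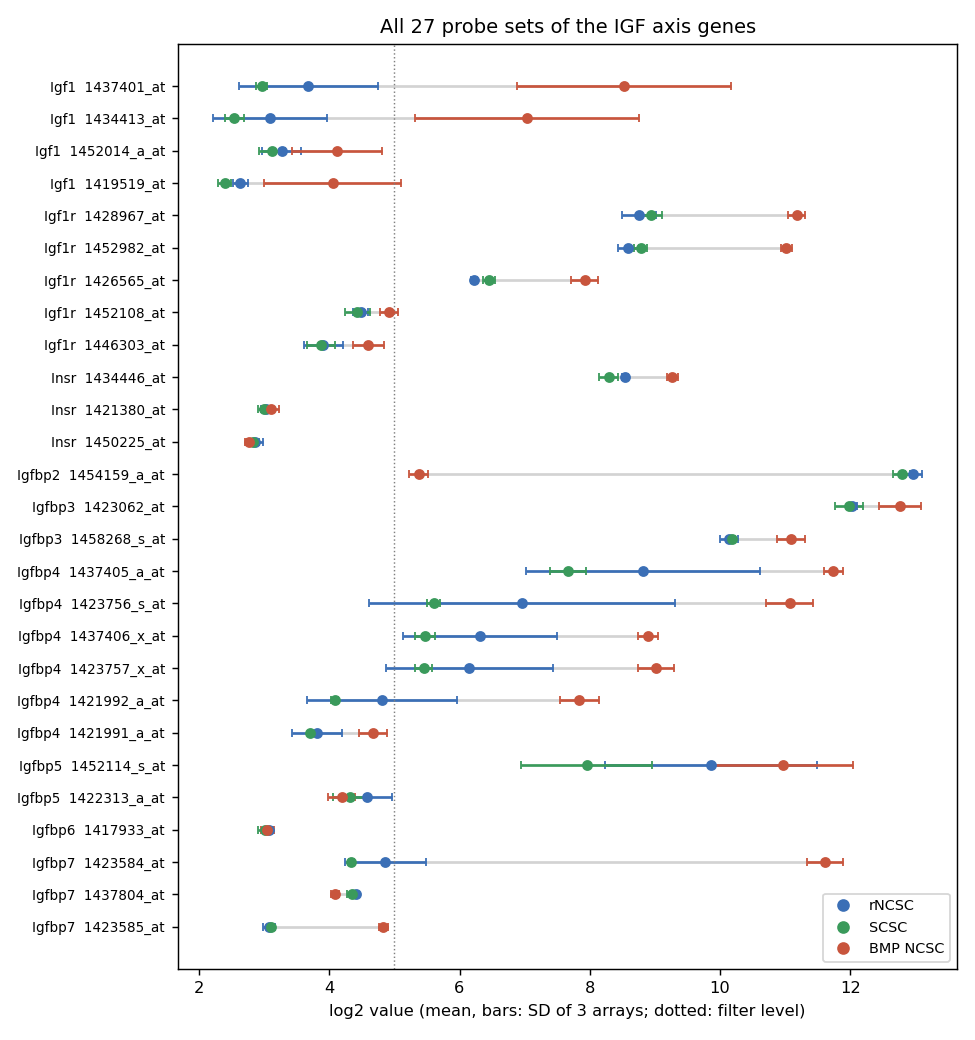
Mean log2 value of each of the 27 member probe sets (rows) in rNCSC, SCSC and BMP NCSC, with bars for the SD of 3 arrays and a dotted line at the filter level of 5. The 5 Igfbp4 probe sets past the filter all separate BMP NCSC from SCSC, and those of Igfbp7 differ, with 1 of 3 past the filter.

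Over all 27 probe sets, 16 passed the filter; 11 of them were called higher and 1 lower in BMP NCSC against rNCSC, where 42.4% of the 19914 probe sets tested were called. Against SCSC 12 were called higher and 1 lower, where 45.1% of all were called. Probe sets of 1 gene share its RNA, so these counts describe how far they go together and add no replicates. For 1437401_at and 1434413_at (Igf1), 1423584_at (Igfbp7) and 1421992_a_at (Igfbp4), no array outside BMP NCSC but rNCSC replicate 3 reached 5. A call of these probe sets could only be higher, so both counts of higher probe sets carry that limit. The shares over all probe sets were not split by direction.

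The second comparison set BMP NCSC against spinal cord spheres. It shares the BMP NCSC arrays with the first, so the calls of one are no independent check of the other. Here 5 of the 8 tested members were higher in BMP NCSC (Igf1, Igf1r, Igfbp4, Igfbp5 and Igfbp7) and Igfbp2 was lower, with 22.9% of all genes called higher and 24% lower. The median difference over the 8 was 2.63, against -0.1 over all genes. Igf1 and Igfbp7 were tested because their BMP NCSC arrays reached 5, while every SCSC array lay under that level. A call of either gene could thus only be higher, and the count of 5 and the median carry that limit here too.

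**Figure D3:**
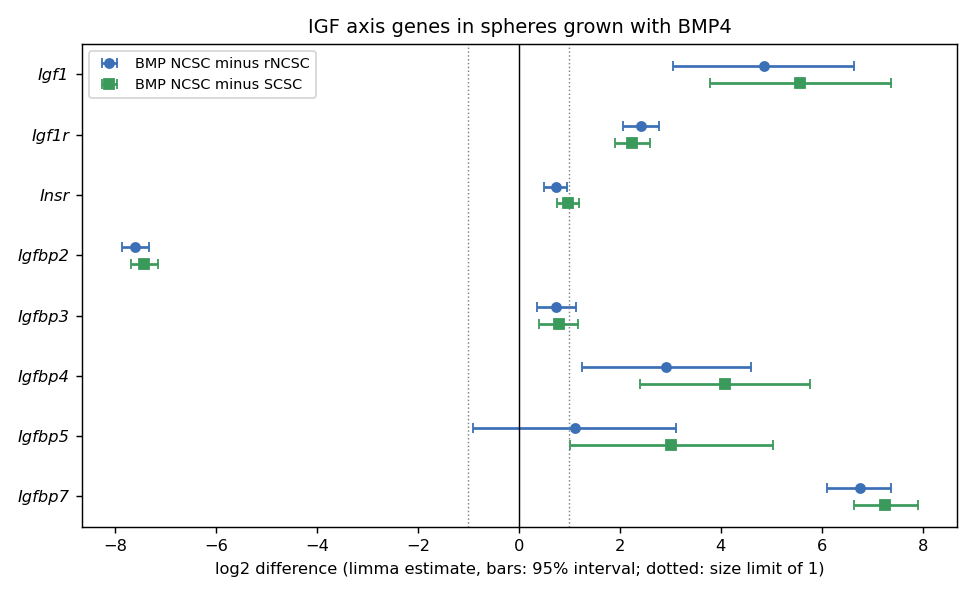
Log2 difference of BMP NCSC from rNCSC and from SCSC for the 8 tested members, with bars for the 95% interval of the limma fit and dotted lines at the size limit of 1. Igfbp2 is at -7.60 and -7.42, and the intervals of Igf1, Igfbp4 and Igfbp5 are wider than those of Igf1r and Insr.

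The third comparison asked whether DRG and spinal cord spheres grown in the same medium differed. By limma 0 of the 8 tested members were called, where 0.00969% of all genes were (1 of 10320). At an unadjusted p below 0.05, 1 member passed (Insr, 0.25 higher in rNCSC, adjusted p = 0.312), as did 1413 of all genes. Igfbp2 differed by 0.17 (adjusted p = 0.549), Igf1r by -0.18 (adjusted p = 0.657) and Igfbp7 by 0.52 (adjusted p = 0.447). Igfbp5, at 1.91 ± 0.88 (adjusted p = 0.379), and Igfbp4, at 1.16 ± 0.73 (adjusted p = 0.521), had large errors, and without rNCSC replicate 3 the differences were 0.98 and 0.16. These p-values do not show that the groups were alike.

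rNCSC replicate 3 was set on a scale on which the SCSC mean is 0% and the BMP NCSC mean 100%. For Igfbp4 the 3 rNCSC arrays lay at -8.59%, 16.3% and 77.3%, and for Igfbp5 at 25.0%, 40.0% and 125%. Igf1 lay at 4.50%, -0.302% and 34.8%, and Igfbp7 at -0.570%, 5.71% and 16.3%. On these 4 genes replicate 3 was thus the nearest of the rNCSC arrays to BMP NCSC. Igf1r lay at -6.74%, 3.40% and -20.1%, and Igfbp2 at -2.22%, -0.633% and -4.22%, so on these replicate 3 was the farthest. Over the 2366 genes higher in BMP NCSC than in SCSC, the median position was -0.532%, -0.349% and 5.06%, and 6.13% of them were nearer to BMP NCSC on replicate 3. Over the 2473 genes lower in BMP NCSC than in SCSC, the medians were 8.76%, 4.85% and 9.27%.

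**Figure D4:**
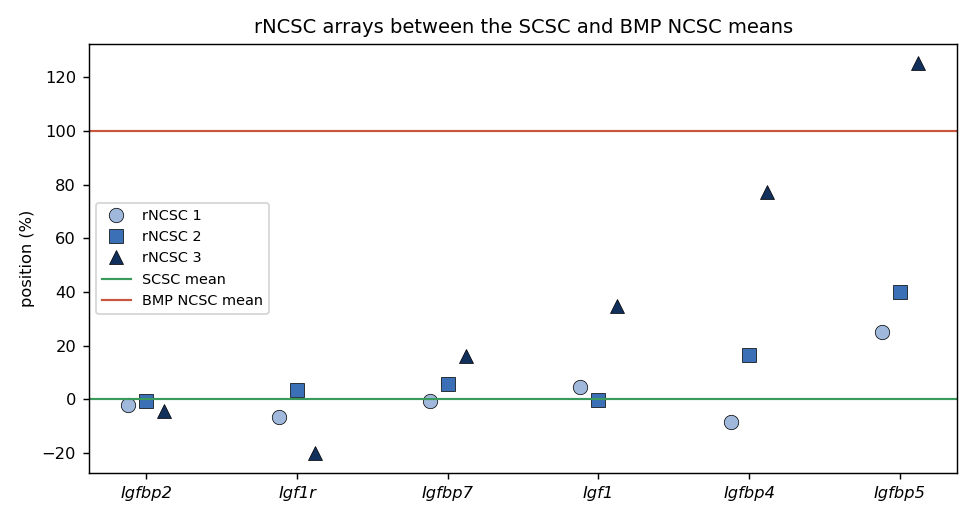
Position of each rNCSC array between the SCSC mean (0%) and the BMP NCSC mean (100%) for the 6 members called between SCSC and BMP NCSC. rNCSC replicate 3 is at 77.3% for Igfbp4 and 125% for Igfbp5 and below 0% for Igf1r and Igfbp2.

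Marker lists on that array were read for the same reason. The 10 mesenchyme and cartilage markers had a mean of 3.20 on rNCSC replicate 3, against 3.16 and 3.00 on the others and 2.97 to 3.20 on the SCSC arrays, and the 6 crest markers a mean of 3.35. Of the 8 meningeal fibroblast markers, Foxc1 was at 8.45 there against 6.04 and 4.65 on the other rNCSC arrays, and Slc6a13 at 4.15 against 2.68 and 2.59. The other 6 were under 4 on all 3 rNCSC arrays, and the list's mean was 3.72 against 3.17 and 2.91. Their part in the Igfbp4 and Igfbp5 values was not tested. In BMP NCSC array means of the mesenchyme and cartilage markers were 10.72 to 11.64, though Col1a1 was at 3.82, 3.75 and 4.78 and was not tested. All of these markers but Acta2 were under 4 on every rNCSC and SCSC array, so the filter fixed the direction of their calls and no count is read from them. The meningeal list had means of 6.52 to 6.81 in BMP NCSC, where Foxc1, Islr and Ogn were high and Aldh1a2, Crabp2, Col1a2 and Slc6a13 were under 4 on every array. The 11 genes of the BMP response list had means of 6.15 to 6.55 in rNCSC and SCSC and 9.80 to 10.44 in BMP NCSC. Of these, Smad6, Smad7, Id4 and Msx2 passed the filter through BMP NCSC alone, so no count is read from this list either. Id1, Id3, Bambi and Msx1 were called higher in both comparisons, Id2 was called in neither, and Dlx5 was not tested. Hey1 was called lower against rNCSC (-1.04; limma adjusted p = 0.03). How far cells of these kinds account for the higher Igf1, Igfbp4, Igfbp5 and Igfbp7 values was not tested.

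Other genes of the axis were taken from a list of 19 that holds further ligands, receptors, proteases and carriers. Of 18 with a probe set 8 were tested. In BMP NCSC 4 were higher than in rNCSC (Igf2r, Lrp1, Htra1 and Kazald1) and 1 was lower (Adam12). Among all genes tested, 22.6% were called higher there and 21.3% lower. Against SCSC the same 4 were higher and 0 were lower, where the shares over all genes were 22.9% and 24%. Kazald1 passed the filter through BMP NCSC alone, which fixed its direction, so both counts carry that limit. Igf2, the fetal ligand, was at 3.56 to 3.95 on the rNCSC and SCSC arrays and at 4.39, 4.47 and 4.63 in BMP NCSC, under the filter throughout.

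Igf2r, which encodes the mannose 6-phosphate receptor that takes IGF2 to the lysosome, was at 7.44, 7.07 and 8.51 in rNCSC, at 7.46, 6.87 and 7.14 in SCSC and at 11.57, 11.29 and 11.14 in BMP NCSC. The BMP NCSC arrays were well above the rest, and rNCSC replicate 3 was again the highest outside them. The difference from rNCSC was 3.66 ± 0.34 (limma adjusted p = 1.36e-05). Lrp1, an endocytic receptor, read 7.43, 7.39 and 8.66 in rNCSC, 7.27, 7.01 and 7.09 in SCSC and 11.49, 11.39 and 11.39 in BMP NCSC, and rose by 3.60 ± 0.30 (adjusted p = 7.26e-06), with rNCSC replicate 3 again the highest outside BMP NCSC. Kazald1, which encodes a secreted protein with an IGF binding domain, was at 2.99, 3.08 and 2.92 in rNCSC and at 10.75, 11.15 and 10.49 in BMP NCSC, a difference of 7.80 ± 0.15 (adjusted p = 1.42e-09) in a gene that passed the filter through BMP NCSC alone. Htra1, a secreted serine protease that cleaves binding proteins, rose by 2.15 ± 0.36 (adjusted p = 0.000556).

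Among genes of other proteases that cleave binding proteins, Pappa, the pappalysin gene, read at most 3.44 on any array. Adam12, a metalloprotease gene, was at 9.73, 9.60 and 10.78 in rNCSC, at 9.66, 9.64 and 9.84 in SCSC and at 8.61, 9.01 and 9.15 in BMP NCSC. It was lowest in BMP NCSC with no overlap, and differed by -1.11 from rNCSC (limma adjusted p = 0.00722). That call was lost without rNCSC replicate 3 (-0.74), without BMP NCSC replicate 1 (-0.96) and with the probe set of largest variance (-0.98), and the difference from SCSC was -0.79.

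**Figure D5:**
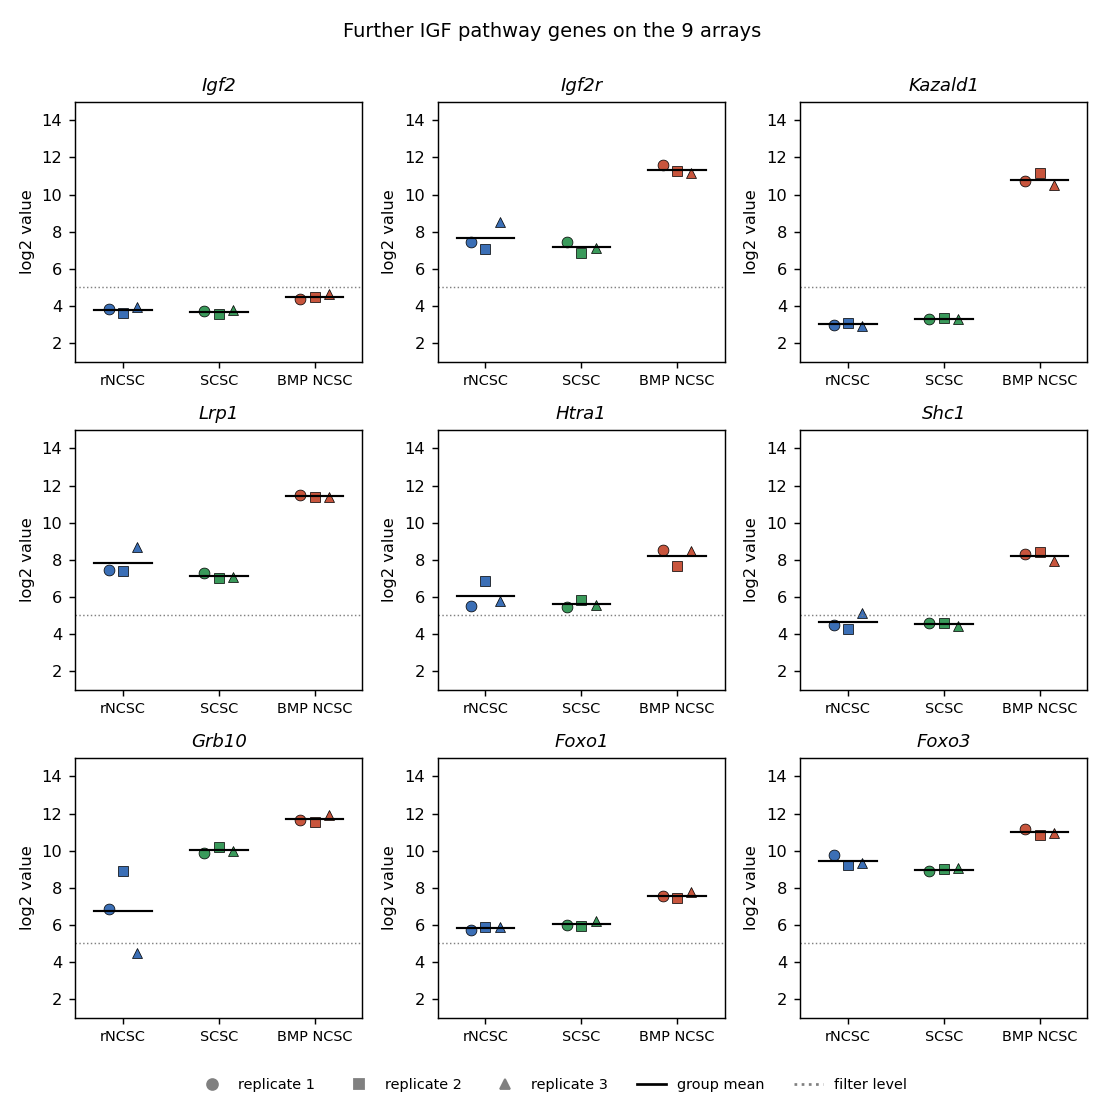
Log2 values of 9 further genes of the pathway on the 9 arrays, with the group mean as a line and the filter level of 5 as a dotted line. Igf2 stays under the filter, Igf2r, Kazald1 and Lrp1 are above 10 on all BMP NCSC arrays, and Grb10 runs from 4.46 to 8.91 within rNCSC.

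Downstream of the receptors, 23 adaptor and PI3K-AKT-FOXO genes were listed, of which 21 had a probe set and 20 were tested. Of these 20, 4 were higher and 1 lower in BMP NCSC against rNCSC, where 22.6% of all genes were called higher and 21.3% lower. Against SCSC 3 were higher and 1 lower, where those shares were 22.9% and 24%. The median difference over the 20 was 0.33 and 0.13. Shc1, an adaptor that links receptors to RAS, rose by 3.60 ± 0.22 from rNCSC (limma adjusted p = 9.49e-07) and by 3.69 from SCSC. It passed the filter through BMP NCSC alone, and the mean of its probe sets gave 2.36 and 2.41. Foxo1 and Foxo3, transcription factors that AKT keeps out of the nucleus, rose by 1.73 ± 0.12 (adjusted p = 1.7e-06) and 1.53 ± 0.15 (adjusted p = 2.04e-05). The Foxo1 probe sets were unequal: one that also passed the filter differed by 0.17 from rNCSC, and the mean of all probe sets gave 0.73 and 0.61 against rNCSC and SCSC, neither called. Pik3r3, a regulatory subunit of PI3K, fell by 2.18 on the log2 scale (SE 0.34; adjusted p = 0.000362). Irs1, an adaptor of both receptors, differed by 0.32 (adjusted p = 0.212), and Irs2 by -0.74 (adjusted p = 0.0392), neither called.

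Grb10 encodes an imprinted adaptor that restrains signalling from the IGF1 and insulin receptors. It was at 6.84, 8.91 and 4.46 in rNCSC, at 9.85, 10.20 and 9.99 in SCSC and at 11.66, 11.53 and 11.92 in BMP NCSC. The rNCSC arrays were spread over more than 4 and lay under all SCSC arrays. The rise from rNCSC to BMP NCSC was 4.96 ± 0.90 (adjusted p = 0.000894), with 3.82 ± 0.51 when rNCSC replicate 3 was left out, 6.05 ± 0.58 without rNCSC replicate 2 and 2.93 ± 0.35 for the mean of all probe sets. The difference from SCSC, 1.69 ± 0.90, was not called in the fit of all 9 arrays (adjusted p = 0.113), whose shared spread takes in that of rNCSC. It was called at the same size without rNCSC replicate 3 (adjusted p = 0.00886), without rNCSC replicate 2 (adjusted p = 0.0179) and with only the 6 arrays compared (adjusted p = 3.27e-05), and at 1.62 with the mean of all probe sets (adjusted p = 0.00243). Between rNCSC and SCSC the difference was -3.28 ± 0.90 (adjusted p = 0.215). It was -2.14 without rNCSC replicate 3 (adjusted p = 0.189), and -4.36 and called without replicate 2 (adjusted p = 0.0227). With all arrays 0 of the 28 tested genes of both lists were called by limma between rNCSC and SCSC, and 6 had an unadjusted p below 0.05. Among all 10320 genes tested, 1 was called in that comparison and 1413 had an unadjusted p below 0.05.

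Genes with the profile most like a called member were named by Pearson's r over the 9 arrays, as a description of arrays that fall into the same 3 groups. For Igfbp4 these were Fam122a (r = 0.9899), Mme (0.9889) and Cers6 (0.9879), and 120 tested genes reached 0.95. Mme, which encodes the peptidase neprilysin, was at 1.82, 2.12 and 9.63 in rNCSC and at 12.70 to 13.38 in BMP NCSC. Like Igfbp4, it was high in rNCSC replicate 3. Mme was picked for its likeness to Igfbp4 over these same arrays, so that shared high value followed from the choice. For Igf1 the genes most alike were Myo5b (0.9944), Prss35 (0.9941) and Tab2 (0.9932), and 427 genes reached 0.95. The other profiles were common: 1701 genes reached 0.95 with Igf1r, led by Ehhadh, Uso1 and Anxa7, 2246 with Igfbp2, led by Grm5, Fut9 and Fabp7, and 1976 with Igfbp7, led by P3h1, Sqor and Ficd. Igf1 and Igfbp4 thus had fewer near matches than Igf1r, Igfbp2 and Igfbp7.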

How the data were processed

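The deposited values, 1 per probe set and array on the log2 scale, were made by the authors with GCRMA, per the submitters' processing notes (version not given in the sources used here). Of 45101 probe sets 64 were controls, 34958 had 1 symbol, 932 several and 9211 none listed, and the gene identifiers of 34754 were found in RefSeq's table of GRCm38.p6, used for names and neighbours. Groups and replicate numbers came from the sample titles. limma 3.58.1 in R 4.3.3 fitted 3 group means over 9 arrays (6 residual and 2.39 prior degrees of freedom), with two-sided tests and adjustment by Benjamini-Hochberg across all 10320 genes, or all 19914 probe sets, that reached 5 on at least 3 arrays. Calls needed an adjusted p under 0.05 and a difference of 1 or more in size. Errors after ± are SE of the fit. The steps were tested on simulated data. Named were all members, called genes of the lists with non-overlapping arrays, fixed genes such as Igf2, and the 3 tested genes most like each member called against rNCSC; Mme values, Adam12, Pappa2 and Foxc1 were named after their values were seen. Members and lists were chosen with earlier results of these data known. A few listed genes are not analysed here. Alternatives covered filter, summary of probe sets, normalization, thresholds, replicate block and leaving out each array.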

Additional observations from a re-analysis of the deposited data

How the results depend on the processing

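Of 504 alternative values for the 24 member differences, 492 kept their direction and side of the threshold, 1 lost its call, 7 gained one and 4 reversed. The reversals were all of Igfbp3 in rNCSC against SCSC, main value 0.05 and not called: 0 with the mean of all probe sets, -0.05 with the probe set of largest variance, and between -0.03 and 0.17 when 1 array was left out. Igfbp5 against SCSC lost its call at an adjusted p under 0.01. With no size limit, Insr and Igfbp3 were called in both comparisons with BMP NCSC, and the other genes called rose from 10 to 21 (13 higher, 8 lower) against rNCSC and from 8 to 17 (11 higher, 6 lower) against SCSC. Small p-values were common over all genes. By limma, 8175 of the 10320 genes tested had an unadjusted p below 0.05 against rNCSC, and 8342 had one against SCSC. The share of all genes called with no size limit was not counted, so nothing particular to these lists is read from the rise. Leaving out 1 array gave 0 to 1 calls among the other genes between rNCSC and SCSC. Those fits kept the gene set and probe sets of all 9 arrays. With the replicate number as a block, the members called stayed at 5, 6 and 0, and the other genes called at 10, 8 and 0. No label says that the numbers pair the samples, but same-numbered arrays went together more than an even draw would give. Their deviations correlated at 0.04 to 0.3 over 9 pairs. Of 18 best matches, each among 3 arrays, 16 were with the own number. What the numbers share was not tested. Only 3 arrays a group limit the precision.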

Other observations

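Pappa2, which encodes a pappalysin that cleaves the IGFBP3 and IGFBP5 proteins, was under the filter and in no comparison of the main fit. With no filter, or a filter of 4 on 3 arrays, it was called in both comparisons with BMP NCSC. It was at 2.90 to 3.17 on the 6 rNCSC and SCSC arrays and at 4.44, 4.26 and 8.40 on the BMP NCSC arrays. BMP NCSC replicate 3, high for Pappa2, was also the one high for all 4 Igf1 probe sets and for Prss35, a serine protease gene (6.03, 6.22 and 8.44). On that array 151 of 10320 tested genes (1.46%) lay at least 1 above both other BMP NCSC arrays, against 14 and 33 for replicates 1 and 2, and of the 8 tested members Igf1 alone was among them. Igfbp4, at 11.58, and Igf1r, at 11.04, were lowest on the same array within BMP NCSC. Pappa2 was picked out after its values were seen. Prss35 was named for its likeness to Igf1 over these same arrays, so its high value there followed from that choice.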
